A study of Mus musculus with 3 samples.

Results

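Elastic fibre genes were followed across mouse ankle synovium cells kept for 24 h on plates of 3 stiffness levels. The set held 10 genes, Eln, Fbn1, Fbn2, Fbln1, Fbln2, Fbln5, Efemp1, Efemp2, Emilin1 and Mfap5, taken by symbol from a table of 56833 genes, and all 10 had reads in every library. The cells came from Efhd1CreER; Ai9 mice, in which a CreER recombinase at Efhd1 switches on the Ai9 tdTomato reporter, and were sorted for tdTomato. The groups were 1 library on 0.2 kPa (soft), 1 on 8 kPa (intermediate) and 1 on 64 kPa (stiff), all on collagen-coated CytoSoft plates and all of that genotype. The age, the sex and the number of mice behind a library are not given in the sources used here. The series asks about matrix stiffness and the conversion of telocytes, an interstitial cell type, to fibroblasts.

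With 1 library per level no difference has a replicate check, and no p-value is given. A difference between plates cannot be told apart from a difference between cultures. The libraries held 25487064 (soft), 28081600 (intermediate) and 26474862 (stiff) reads, of which the 10 genes took 0.282%, 0.310% and 0.330%. Where 3 values follow each other without plate names they are soft, intermediate and stiff, in that order. Levels are normalized counts, that is reads divided by the authors' size factor for the library. Ratios are log2 ratios of these values with a pseudocount of 1, which understates the change of low genes. The counting interval beside a ratio is an exact 95% Clopper-Pearson interval of the reads without the pseudocount, and it covers counting error only. In bulk RNA, fewer cells of a type and less RNA per cell cannot be told apart.

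Of the telocyte markers Cd34, Pdgfra, Kit, Foxl1, Gli1, Efhd1 and Vim, 4 of 7 had a mean of at least 50 normalized counts. Of these Cd34 and Vim were higher on stiff than on soft, at log2 ratios of 0.44 and 0.25, and Pdgfra and Foxl1 were lower, at -0.20 and -0.36. The others were Kit with 41, 41 and 44 reads, Gli1 with 9, 12 and 8 and Efhd1, the gene behind the CreER allele, with 10, 5 and 3. The reporter tdTomato stood at 818, 1193 and 2668 normalized counts, highest on stiff, and its part in the values below was not tested. Fibroblast genes were abundant on every plate, with 78648, 110715 and 151834 normalized counts of Col1a1 and 5884, 6298 and 5118 of Pdgfra, which is also one of the telocyte markers.

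Elastic fibres give skin, vessels, ligaments and joint capsules their recoil. Fibrillins assemble into microfibrils, tropoelastin is laid down on them with the help of fibulins, and lysyl oxidases crosslink it into an insoluble core. The same microfibrils bind latent TGF-beta through the LTBP proteins, so the genes serve growth factor storage as well as elasticity.

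Fbn1 encodes fibrillin-1, the main structural protein of microfibrils, and is the gene mutated in Marfan syndrome. It lies on the minus strand of chromosome 2, bases 125142514 to 125349913 of GRCm39, with 65 exons and 12004 bases in the canonical transcript. Its levels were 14774, 19777 and 21624 normalized counts. The soft library was the low one, and most of the difference lay in the first step. The stiff to soft log2 ratio of Fbn1 was 0.55, with a counting interval from 0.52 to 0.58, a level 46.4% higher, and it reversed to -0.15 after the correction for length and GC content described below. The first step, soft to intermediate, gave a log2 ratio of 0.42 and the second, intermediate to stiff, 0.13.

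Fbn2 encodes fibrillin-2, the fibrillin best known from embryonic and early postnatal tissue. It had 18, 14 and 30 reads, a mean of 20.8 normalized counts, and was the only one of the 10 genes below the minimum mean of 50 used for calls. Its stiff to soft log2 ratio of 0.71 had a counting interval from -0.15 to 1.67, so no difference was detectable at this depth. Between stiff and intermediate the log2 ratio was 1.16, with an interval from 0.26 to 2.25. Fbn1 thus carried nearly all fibrillin reads of these cells on each plate.

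Eln encodes tropoelastin, the monomer of the elastic core. Its position is the minus strand of chromosome 5, bases 134731445 to 134776322, with 37 exons. Reads were few throughout, 48, 61 and 78, or 49.2, 57.5 and 80.0 normalized counts. The values were ordered by stiffness, and the stiff library was the high one. The stiff to soft log2 ratio of Eln was 0.69, the largest among the 9 genes that passed the filter, but its interval ran from 0.16 to 1.25. The intervals of the log2 ratios for the single steps, -0.34 to 0.80 for intermediate against soft and -0.03 to 0.98 for stiff against intermediate, both held 0.

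Efemp2, Fbln5 and Efemp1 encode fibulin-4, fibulin-5 and fibulin-3, short fibulins built from calcium-binding EGF-like modules. Fibulin-4 brings lysyl oxidase to tropoelastin, and fibulin-5 binds tropoelastin and cell surface integrins. Efemp2 was the most abundant of the 10 genes, at 22721, 23205 and 25257 normalized counts. Its stiff to soft log2 ratio was 0.15, with an interval from 0.13 to 0.18, so the 3 libraries were close.

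Fbln5 stood at 8316, 7734 and 7985 normalized counts, with the soft library highest. Its stiff to soft log2 ratio was -0.06, with an interval from -0.10 to -0.01. Efemp1 stood at 2689, 2704 and 2498 normalized counts, with the stiff library lowest. Its stiff to soft log2 ratio was -0.11, with an interval from -0.19 to -0.03, and of the 10 genes these 2 short fibulins were lower on the stiff than on the soft plate, joined by Mfap5 when libraries were scaled by total reads or the upper quartile, and Efemp1 turned to 0.04 with the length and GC trend described below subtracted. Each differed by under 0.2 on the log2 scale, and with no replicate nothing shows that such a size exceeds the spread between cultures.

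Fbln1 and Fbln2 encode fibulin-1 and fibulin-2, larger fibulins found on elastic fibres and in basement membranes. Fbln2 is a plus strand gene of chromosome 6, bases 91189437 to 91249522. It stood at 14584, 17298 and 20027 normalized counts, ordered by stiffness, with a stiff to soft log2 ratio of 0.46 (interval 0.43 to 0.49). Its steps were alike, 0.25 and 0.21 on the log2 scale. Fbln1 stood at 1497, 1648 and 1948 normalized counts, again ordered by stiffness, with a stiff to soft log2 ratio of 0.38 (interval 0.28 to 0.48). The long fibulins were higher on the stiff plate by 37.3% (Fbln2) and 30.2% (Fbln1), while the same pair of libraries differed by -3.99% in Fbln5, by -7.10% in Efemp1 and by 11.2% in Efemp2, the third short fibulin. After that same correction the log2 ratio of Fbln2 was 0.17, near the 0.11 of Efemp2, and that of Fbln1 was 0.33.

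Emilin1 encodes a glycoprotein at the interface of elastin and microfibrils that also binds integrins. It had 3142, 3690 and 3918 normalized counts. The stiff to soft log2 ratio of Emilin1 was 0.32 (interval 0.25 to 0.39), with 0.23 in the first step and 0.09 in the second. Mfap5 encodes a small microfibril-associated glycoprotein (MAGP-2) and is often used as a marker of adventitial progenitor fibroblasts. It was level, at 6012, 5931 and 6215 normalized counts, and its stiff to soft log2 ratio of 0.05 had an interval from -0.004 to 0.10 that held 0.

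**Figure D1:**
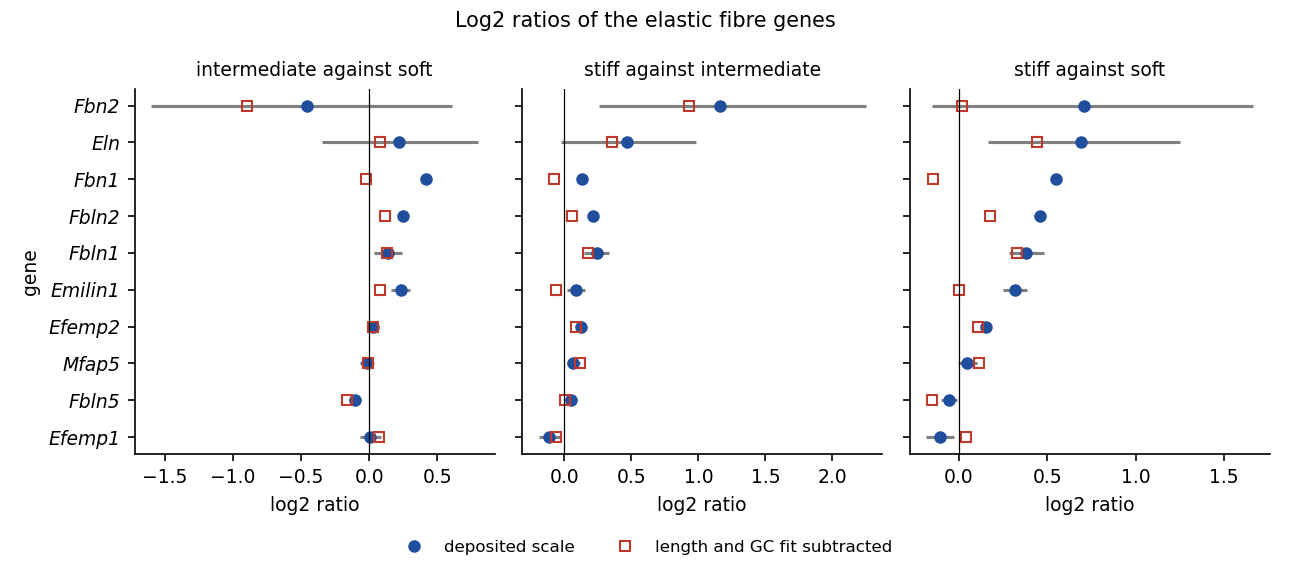
Log2 ratio of each of the 10 genes (rows) in each comparison (panels), with the deposited scale as filled circles, exact 95% counting intervals as bars and the values after subtraction of the local trend with transcript length and GC content as open squares; 1 library per level. Fbn1 sits at 0.55 on the deposited scale and at -0.15 after subtraction in the stiff against soft panel, while Fbln1 moves little, from 0.38 to 0.33.

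Calls were made by size. A gene was called past a threshold when its mean over the libraries was at least 50 and its log2 ratio reached 1, or in a second count 0.5, in either direction. Of the 9 genes that passed the filter, 0 reached a log2 ratio of 1 between stiff and soft, where 3.6% of all 11873 genes did. At 0.5 there were 2, Eln and Fbn1, both higher on stiff, beside 15.6% of all genes in either direction and 11.8% in the upward direction. This count was 1 with libraries scaled by total reads or the upper quartile. It was 0 with the length and GC trend described below subtracted, beside 12.1% of the 11655 genes with a fit.

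Neither single step gave a call at either size. In the first step 0.168% of all genes reached 1 and 4.6% reached 0.5, and in the second 1.25% and 8.84% did. The shares are of a few genes, and 2 of 9 is not read as a difference from the background. Smaller differences mostly pointed upward. Of the 9 genes, 7 were higher and 2 lower on stiff than on soft, where 51.1% of all genes were higher by any size. Their median log2 ratio was 0.32 beside 0.005 over all genes with the same minimum mean. The median log2 ratio of the first step was 0.14 and that of the second 0.12, beside 0.01 over all genes in each. Corrected for length and GC content these step medians were 0.07 and 0.06, and the stiff to soft median was 0.11.

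Eln, Fbn1, Fbln1, Fbln2, Efemp2 and Emilin1, 6 of the 9, were higher at each of the 2 steps, a pattern that 30.2% of all genes with that mean showed. The count was 5, without Efemp2, when scaled by the upper quartile, and 4 with the length and GC trend subtracted, without Fbn1 and Emilin1. The 2 steps share the intermediate library. Scaling the libraries by total reads or by the upper quartile moved the stiff to soft ratios by -0.06, which placed Mfap5 below 0 at -0.01 in both, Fbn1 just under the threshold at 0.49 in both, and left the other signs in that comparison as they were.

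Levels of different genes were compared per kilobase of the canonical transcript. Efemp2 led in every library, with 10230.2, 10448 and 11372 normalized counts per kb. Fbln2 came next, with 3047, 3614 and 4185 per kb. Fbn1, Mfap5, Fbln5 and Efemp1 lay close together, between 1231 (Fbn1) and 1384 (Mfap5) per kb in the soft library and between 1149.6 (Efemp1) and 1801 (Fbn1) per kb in the stiff one.

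Emilin1 and Fbln1 were lower, at 1017 and 837 per kb on stiff. Eln and Fbn2 stood far below, at 20.01 and 2.76 per kb on stiff. The level of Efemp2 was exceeded by 1.10% of the 13923 genes with an annotated length and a mean of at least 10, and that of Eln by 87.4%. The cells thus held abundant transcripts for microfibril and fibulin proteins and few for the elastic core. The order of the close genes depended on the length used: with the union of all exons in place of the canonical transcript, 7 genes kept their place on soft and 6 on each of the others, and Efemp2, Fbln2, Fbln1, Eln and Fbn2 kept theirs in all 3.

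**Figure D2:**
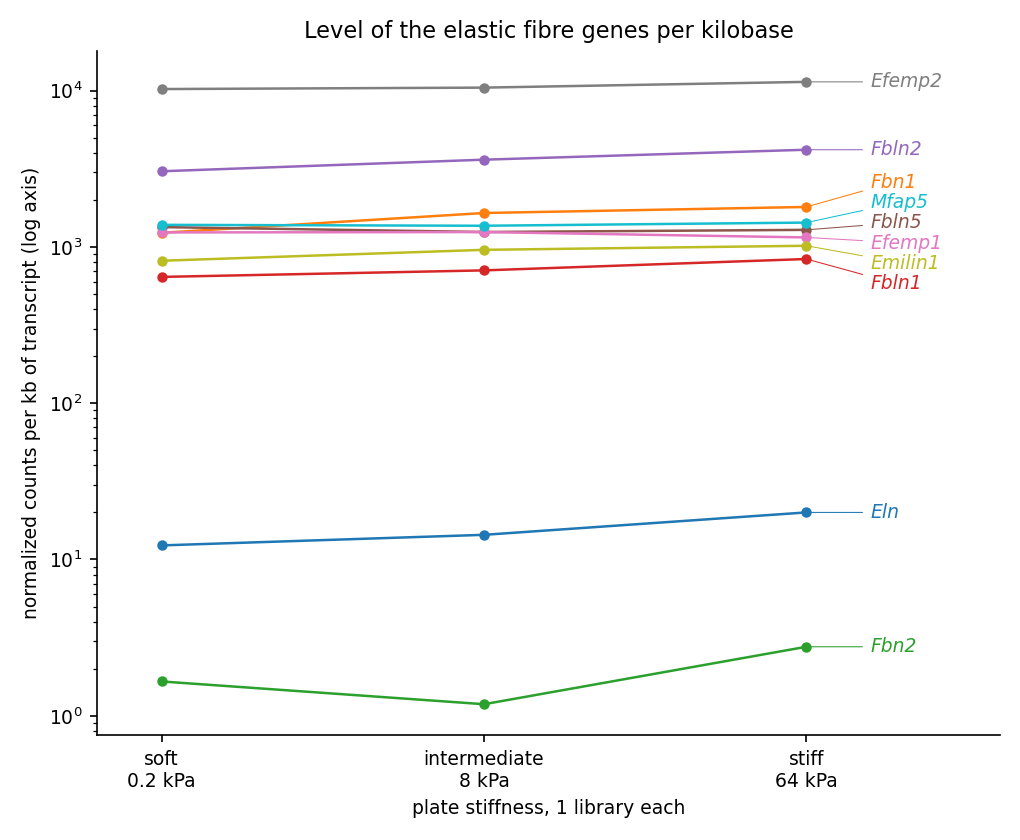
Normalized counts per kilobase of canonical transcript (log axis) of the 10 genes in the soft, intermediate and stiff library, 1 point per library and no error bars because there is 1 library per level. Efemp2 lies at the top, from 10230.2 to 11372, and Eln and Fbn2 lie below all others, at 20.01 and 2.76 in the stiff library.

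A ratio of reads of a pair of genes within a library does not depend on how libraries are scaled. Fbn1 was taken as the reference. The log2 ratio of Fbln5 to Fbn1 reads was -0.83 on soft, -1.35 on intermediate and -1.44 on stiff. The stiff library differed from the soft one by -0.61 in the Fbln5 to Fbn1 log2 ratio, with a counting standard error of 0.03. Efemp1 to Fbn1 differed by -0.66 (counting standard error 0.04) and Mfap5 to Fbn1 by -0.50 (0.03).

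Efemp2 differed from Fbn1 by -0.40, Emilin1 by -0.23, Fbln1 by -0.17 and Fbln2 by -0.09 on the log2 scale, and Eln by 0.15 with a counting standard error of 0.27. Fbn2 differed by 0.19, with a counting standard error of 0.43. So 7 of the 9 genes other than Fbn1 were lower relative to it on stiff than on soft, and 4 were lower when the summed reads of all 10 genes served as the reference, where Fbln1, Fbln2 and Emilin1 were higher. Corrected for length and GC content, as described below, 1 of the 9 was lower relative to Fbn1, Fbln5 at -0.01, and 8 were higher, with Efemp1 at 0.18, Mfap5 at 0.26 and Efemp2 at 0.25. In shares of all reads of the 10 genes, Fbn1 went from 20.02% to 24.1%, Fbln5 from 11.3% to 8.91% and Efemp2 from 30.8% to 28.2% between soft and stiff. The shares of Fbln2, 19.8% and 22.4%, and of Fbln1, 2.03% and 2.18%, were higher on stiff.

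Transcript length moved with these ratios. Over every gene that passed the filter, the 314 with transcripts over 10 kb had a median stiff to soft log2 ratio of 0.32, and the 2324 with transcripts of 2 to 3 kb had a median of -0.01. The same classes had medians of 0.22 and -0.01 in the first step and 0.07 and 0.002 in the second. A local linear trend over length and GC content was therefore fitted from the 300 nearest genes, each gene left out of its own fit, and subtracted.

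The fitted stiff to soft trend at Fbn1 was 0.70, above the ratio of Fbn1 itself, and the remainder was -0.15. The median of all tested transcripts over 10 kb, whatever their GC content, was 0.32, below the 0.55 of Fbn1. At Fbln5 the fitted trend was 0.10 and the remainder -0.15. The remainders of Fbn1 and Fbln5 were thus alike, while their deposited log2 ratios were 0.55 and -0.06. For Emilin1, with a GC content of 61.0%, the fitted trend was 0.32 and the remainder -0.003. Fbln1 had a fitted trend of 0.05 and kept 0.33, Eln kept 0.44, Fbln2 kept 0.17 and Efemp2 kept 0.11. After subtraction Eln and Fbn1 were both under 0.5 in size, so that 0 of the 9 genes reached it, beside 12.1% of the 11655 tested genes with a fit. The median stiff to soft ratio of the 9 was then 0.11, with 6 genes higher and 3 lower, beside 49.9% of all genes higher. The part of length and GC content in the result was not tested beyond this subtraction.

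**Figure D3:**
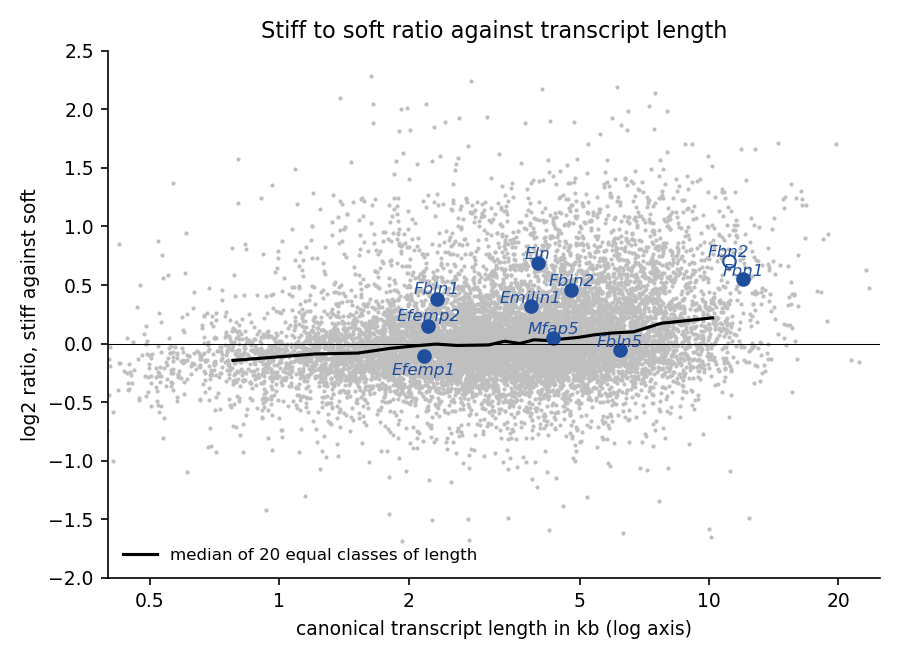
Stiff to soft log2 ratio against the length of the canonical transcript in kb (log axis), with 11609 genes that passed the filter in grey (46 more lie outside the axes), the median of 20 equal classes of length as a black line and the 10 elastic fibre genes in blue, Fbn2 open because its mean was under 50. The line climbs with length, and Fbn1 at 12004 bases lies at 0.55 among long transcripts.

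Sequence upstream of the gene start was read for Fbn1 and Fbln5. The log2 ratio of Fbln5 to Fbn1 reads differed by -0.61 between stiff and soft, and by -0.01 with the length and GC trend subtracted. RefSeq windows of 300 bases on GRCm38.p6, from 250 before to 50 after a start, were at hand for 7 of the 10 genes in 11 windows. Eln, Fbn2 and Mfap5 had no entry. The 250 bases before a RefSeq start are printed for that pair, 5′ to 3′ on the strand of the gene, with matches to the Sp1 GC box (GGGCGG, either strand) in capitals. The Fbn1 stretch is chr2:125506439-125506688 and the Fbln5 stretch is chr12:101819120-101819369, both on the minus strand.

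Fbn1: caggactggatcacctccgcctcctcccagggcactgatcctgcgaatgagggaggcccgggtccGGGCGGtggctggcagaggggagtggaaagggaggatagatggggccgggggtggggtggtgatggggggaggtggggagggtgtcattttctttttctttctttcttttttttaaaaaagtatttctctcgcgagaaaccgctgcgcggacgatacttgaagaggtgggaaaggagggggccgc

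Fbln5: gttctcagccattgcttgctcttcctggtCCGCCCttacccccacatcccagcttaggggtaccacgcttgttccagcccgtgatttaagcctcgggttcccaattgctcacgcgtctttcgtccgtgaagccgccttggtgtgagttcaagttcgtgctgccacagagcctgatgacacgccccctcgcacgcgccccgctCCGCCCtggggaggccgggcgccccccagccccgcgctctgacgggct

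The Fbn1 stretch held 1 GC box and the Fbln5 stretch 2, and their GC contents were 59.2% and 65.2%. Over the 300-base windows, 8 of the 11 had a GC box, covering 6 of the 7 genes, and 35.7% of all 32851 windows had one. The SMAD core CAGAC was found for 5 of the 7 genes, in 7 of 11 windows, and in 49.6% of all windows. The AP-1 consensus TGANTCA was found for Efemp1 alone, and in 7.81% of all windows. The TEAD core GGAATG, the TATA box TATAAA and the CArG box were found in 0 of the 11 windows, and in 14.7%, 13.6% and 1.63% of all windows. All motifs were searched on both strands; a GC box can overlap another GC box, and a match is a description of letters only.

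Other genes of the pathway were read from a list of 57, of which 45 had a mean of at least 50. Between stiff and soft 14 of the 45 were higher by at least 0.5, beside 11.8% of all genes, and 3 lower, beside 3.77%. Ltbp2, Ltbp4 and Ctss, 3 of the 45, were higher by at least 1, as were 3.22% of all genes. The median log2 ratio of the 45 was 0.18, against 0.005 over all genes. In the first step Ltbp2 was higher at 0.68, where 3.94% of all genes were higher by at least 0.5, and Adamts6 lower at -0.55, where 0.657% were lower by that much. No other gene of the 45 reached 0.5 in that step as deposited. After correction Ltbp2 was at 0.34, and 2 genes were higher by at least 0.5, Mmp12 and Ctss at 0.56 and 0.52. Lower by that much were Adamts6 at -0.57 and Hmcn2, with 67, 67 and 50 reads, at -0.98. Among all 11655 genes with a fit, 251 were higher and 84 lower by that much in this step. In the second step 4 of the 45 were higher by at least 0.5 (Adamts6, Adamtsl4, Ctss and Ltbp4, 0.57 to 0.87), beside 5.42% of all genes. Another 4 were lower (Bmp2, Itgb3, Mmp9 and Itgb8, from -1.31 to -0.55), beside 3.42%. After correction 3 of the 45 were higher, without Ltbp4 at 0.38, beside 545 of all 11655 genes with a fit. Lower were 4, with Hmcn2 at -0.76 in place of Itgb8 at -0.48, beside 399 of the 11655. Over the whole stiff to soft span, with the length and GC trend subtracted, 8 were higher by at least 0.5, beside 7.9% of all genes, and 5 lower, beside 4.15%, and the median was 0.09.

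Microfibril partners gave 5 of the 14. Ltbp2, a fibrillin-binding protein of the LTBP family, had a stiff to soft log2 ratio of 1.05, Ltbp4, which binds fibulin-5, of 1.03 and Ltbp3, which carries latent TGF-beta, of 0.74. Adamtsl4 and Adamtsl3, ADAMTS-like matrix proteins of which the first binds fibrillin-1, had ratios of 0.95 and 0.70. After subtraction of the trend these 5 were 0.47, 0.51, 0.09, 0.66 and 0.41 in the same order. Adamts6, a protease that acts on microfibril components, was -0.55 in the first step and 0.87 in the second. Mfap2 (MAGP-1) and Mfap4, both microfibril-associated, were lower on stiff, at -0.23 and -0.19.

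Of the 7 genes for crosslinking and folding 6 had stiff to soft log2 ratios between 0.19 (Fkbp10, a chaperone of the secretory pathway) and 0.66 (Loxl2). Atp7a, a copper transporter that supplies lysyl oxidases, was level at 0.01, with a counting interval from -0.13 to 0.16, and was below 0 at -0.04 with total-read scaling and -0.05 with upper-quartile scaling. Lox, the lysyl oxidase that crosslinks elastin and collagen, had a log2 ratio of 0.32, and its relatives Loxl1, Loxl2, Loxl3 and Loxl4 had 0.62, 0.66, 0.21 and 0.52. Loxl3 stood at -0.02 in the second step. Loxl1 is the family member most tied to elastin deposition, and with the trend subtracted its ratio was 0.41, that of Loxl2 0.50 and that of Loxl4 0.34. Emilin2, a relative of Emilin1, had 0.91 and kept 0.64. Fbln7, of the fibulin family, had -0.42, and -0.53 with the trend subtracted. For its relative Hmcn2, with 67, 67 and 50 reads, the ratio of -0.41 had a counting interval from -0.98 to 0.13, so no difference was detectable at this depth, and the value with the trend subtracted was -1.59. The list with these 3 genes held 7, of which 3 passed the filter.

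Among receptors, Itga5 and Itgav, alpha subunits of integrins that bind fibronectin, fibrillin-1 or fibulins, had stiff to soft log2 ratios of 0.75 and 0.53, and 0.46 and 0.51 with the trend subtracted. Itgb3, a partner of Itgav, was lower, at -0.82, or -1.02 with the trend subtracted. Itgb8, another partner, was -0.55 between stiff and intermediate, or -0.48 with the trend subtracted. The 3 genes of the elastin receptor complex, Glb1, Neu1 and Ctsa, had ratios of 0.11, 0.09 and 0.21. Of the TGF-beta superfamily ligands, Tgfb3 was higher at 0.68 and Bmp2 lower at -0.82. Bmp2 had 306, 469 and 173 reads, with the intermediate library highest, at a log2 ratio of 0.49 in the first step and -1.31 in the second.

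Of 8 elastin-degrading proteases that passed the filter, Ctss and Mmp12 were higher at 1.08 and 0.65, and Mmp9, a gelatinase, was lower at -0.93. Ctss (cathepsin S) and Mmp12 (macrophage elastase) are proteases typical of macrophages. Macrophage markers moved the same way: 12 of 12 were higher on stiff, beside 51.1% of all genes, with a median log2 ratio of 1.25, and their summed level was 30969.8, 38043 and 66334 normalized counts. Lyz2, Csf1r, Adgre1 and Ptprc all had reads on each plate, with Csf1r at 1267, 1725 and 3359 normalized counts. Their part in the ratios of Ctss and Mmp12, or in those of the elastic fibre genes, was not tested.

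**Figure D4:**
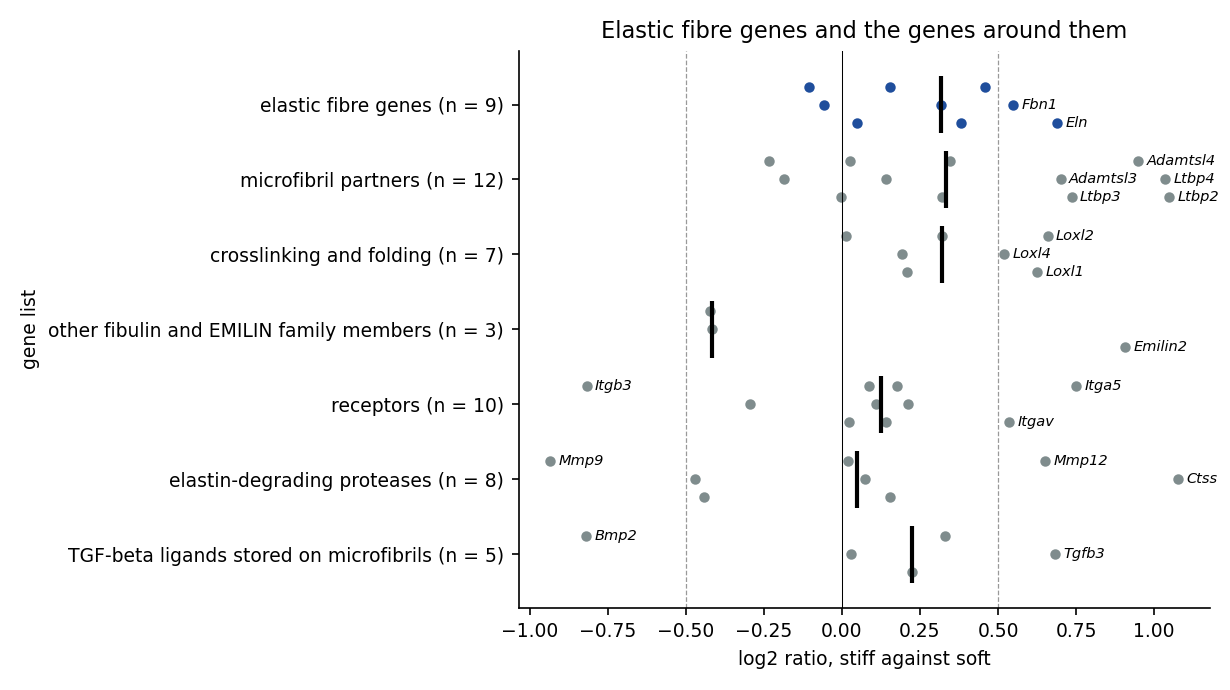
Stiff to soft log2 ratio (horizontal axis) of genes that passed the filter in the elastic fibre set and in 6 lists around it (rows), 1 point per gene, the median as a black bar and dashed lines at a ratio of 0.5 in each direction; vertical offsets only separate points. The medians are 0.32 for the elastic fibre genes, 0.33 for microfibril partners, 0.32 for crosslinking and folding, 0.23 for TGF-beta ligands, 0.12 for receptors, 0.05 for proteases and -0.41 for the other fibulin and EMILIN family members.

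Markers of other cells were read beside these values. The 8 fibroblast markers summed to 243037, 288477 and 343668 normalized counts, of which Col1a1 gave 78648, 110715 and 151834. Their median stiff to soft log2 ratio was 0.19, or 0.03 with the trend subtracted. Of the 8, 5 were higher, beside 51.1% of all genes, and Dcn, Lum and Pdgfra were lower, at -0.44, -0.36 and -0.20. The 9 smooth muscle and mural markers summed to 10218, 13452 and 40054, of which Acta2 gave 7779, 10080.3 and 36823, and Myh11, which defines mature smooth muscle, had 7, 7 and 10 reads. That list was mixed: of the 6 that passed the filter Acta2, Mcam, Cspg4 and Des were higher on stiff, at log2 ratios of 2.24, 0.86, 0.53 and 0.36, and Rgs5 and Notch3 stood at -0.08 and -0.05. With the trend subtracted Cspg4 turned to -0.23 and Notch3 stood at -0.85. The pericyte genes Abcc9, with 13, 8 and 2 reads, and Kcnj8, with 4, 0 and 1, were near 0. The 8 endothelial markers summed to 178, 225 and 199 normalized counts, and 1 of them, Egfl7, passed the filter, with 118, 155 and 108 reads. They did not move together: Pecam1 had 12, 13 and 4 reads and Cdh5 5, 3 and 0, while Kdr had 21, 27 and 45 and Vwf 5, 13 and 14. The 5 synovial lining fibroblast markers summed to 5371, 6359 and 8401 normalized counts. Of the 3 that passed, Prg4 (lubricin) and Hbegf were higher on stiff, at log2 ratios of 0.62 and 0.73, and Htra4 was at -0.11 with 69, 72 and 64 reads. Of 7 chondrocyte and bone markers 3 passed the filter, with stiff to soft log2 ratios of 1.46 for Col2a1, the cartilage collagen, 0.26 for Comp and 0.05 for Sox9, which was highest on intermediate. Acan had 22, 53 and 64 reads and Col9a1 had no read. The 5 adipocyte markers summed to 6602, 6362 and 5599 normalized counts, and of the 4 that passed 3 were lower on stiff, Fabp4 among them at -0.29. Of the skeletal muscle markers Acta1 had 164, 315 and 607 reads, a log2 ratio of 1.88, while Ckm had 1, 0 and 0 reads and Myh4 had none. Of 5 Schwann cell markers 2 passed, Mbp at 1.22 with 117, 165 and 273 reads and S100b at -0.60 with 169, 164 and 111, and Sox10 had 1, 5 and 1 reads. The sum of the 10 elastic fibre genes was 73803, 82057 and 89583. The part of a shift in cell types in the elastic fibre values was not tested.

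The genes most like Eln were sought among 10624 named genes with a mean of at least 100, by the distance between the pairs of step ratios over the 3 libraries. The nearest were Cdk5rap2, Tuba1a, Zdhhc18, Serpinb2 and Atf4, with stiff to soft log2 ratios of 0.69, 0.71, 0.68, 0.67 and 0.69 beside 0.69 for Eln. In all, 125 genes lay within a distance of 0.1. With 3 points per gene and 48 to 78 reads of Eln, this is a description of values only.

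The strand setting of the counting is not given in the sources used here, and 4 of the 10 genes share exon bases with a gene on the other strand. For Fbn1 this is the lncRNA Gm9913, over 20.1% of the Fbn1 exon bases, with 28.7, 37.7 and 58.5 normalized counts. Efemp2 shares 3.18% with Mus81, which had 307.6, 238.5 and 214.3 normalized counts. Eln shares 5.12% with Gm30003, which had no read, and Fbn2 shares 0.878% with Gm41741, which has no row under that name in the table. The part of these overlaps in the ratios was not tested.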

How the data were processed

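RNA of sorted cells was sequenced from TruSeq Stranded mRNA libraries, 1 per stiffness level, per the labels' protocols. The submitters' processing notes name bcl2fastq 2.20.0, STAR 2.7.9a, featureCounts of Subread 2.0.1, DESeq2 1.34.0 and GRCm39; settings and annotation are not given in the sources used here. The deposited values are a signal: counts per gene that the authors scaled by each library's size factor. The 3 deposited files were identical, and columns were matched to libraries by title. All values (100.0%, tolerance 0.001) were whole multiples of the smallest, so whole reads were recovered; a read on soft was worth 1.03, on intermediate 0.943 and on stiff 1.03 normalized counts. A count test was not made, since no level has a replicate.

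Genes were matched by symbol to GENCODE vM39 of GRCm39 (13923 of 14291 with a mean of at least 10). GENCODE lists some transcripts of the printed promoters' genes that start further upstream. Named genes were all members, pathway list genes with a mean of at least 50 past 0.5 in any comparison, and the 5 genes nearest to Eln; other list genes and cell type markers were named after their values were seen. Members, lists and thresholds were chosen with earlier results of these data known. The length and GC fit uses genes with a mean of at least 10. Ratios, intervals and the fit were tested on simulated data. Python 3.11.15, numpy 2.4.6, pandas 2.3.3 and scipy 1.17.1 were used. Alternatives were other pseudocounts, minimum means, 3 scalings and the length and GC fit.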

Additional observations from a re-analysis of the deposited data

How the results depend on the processing

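There is 1 library per level, so leaving out a replicate could not be done. The count of elastic fibre genes past a log2 ratio of 0.5 between stiff and soft, 2 as reported, was 1 when scaled by total reads, 1 by the upper quartile, 1 with a minimum mean of 200 and 0 with the length and GC fit subtracted. Without a filter it was 3, and between stiff and intermediate 1 gene, Fbn2, then passed both 0.5 and 1. Between stiff and soft at 1, and between intermediate and soft at either size, the count was 0 under each alternative. The median stiff to soft ratio was 0.11 with the fit subtracted, and the stiff to intermediate median was 0.058 with it and 0.086 when scaled by total reads. Fbn1 reversed to -0.15 between stiff and soft with the fit subtracted. With union exon lengths, 6 of the 10 genes kept their place by level on the intermediate and 6 on the stiff plate. With the sum of the 10 genes as reference in place of Fbn1, 4 genes were lower on stiff than on soft, against 7. Of 30 member ratios, 8 left their counting intervals when scaled by total reads and 8 by the upper quartile, 15 did with the fit subtracted, and 0 did with either pseudocount or a trimmed mean. The causes of these changes were not tested. At 48 to 78 reads of Eln and 14 to 30 of Fbn2, depth limits what can be said of these genes.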
